A study of Mus musculus with 10 samples.

Results

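The genes described here encode the proteins of the cytosolic ribosome. They were taken from the mm9 gene annotation (GENCODE vM1) as protein-coding genes whose symbol is Rpl or Rps, then a number and at most 1 letter, which gave 76 of 22367 protein-coding genes. Of these, 45 are Rpl genes (large subunit) and 31 are Rps genes (small subunit), on 19 chromosomes. The rule itself reads symbols and no measured value, although it was set with earlier results of these data known.

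The study examined by ChIP-seq where the Polycomb protein Suz12 and its partner Pcl3 sit in the genome of mouse embryonic stem cells (ESCs), and which sites lost Suz12 or the histone mark H3K27me3 when Pcl3 was knocked down. Suz12 and H3K27me3 were profiled in Suz12Suz12TAP/+ ESCs, derived from the gene trap line XG122, in which 1 Suz12 allele expresses a tagged Suz12. These cells expressed either scramble shRNA or Pcl3-shRNA, with 1 library for each ChIP and each input. Tagged Pcl3 (Pcl3-TAP) was profiled in E14 ESCs that carried Pcl3-shRNA6 or Pcl3-shRNA7 against the cells' own Pcl3, with 2 ChIP and 2 input libraries and 1 site list between them. Tagged proteins were precipitated with the FlagM2 antibody, so Pcl3 was read from an introduced copy in cells depleted of their own, and Suz12 from the tagged allele only. The authors deposited 4 site lists, namely 8876 Suz12 sites, 5242 Pcl3 sites, 5722 Suz12-depleted sites (less Suz12 with Pcl3-shRNA) and 678 H3K27me3-depleted sites. The lists hold a position and a p-value for each site but no reads, so depth was not analysed here, a gene either has a site or has none, and no test between samples could be run.

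Suz12 is a core subunit of Polycomb repressive complex 2 (PRC2), which trimethylates lysine 27 of histone H3, and Pcl3 is one of the Polycomb-like proteins that join it. In mammalian cells PRC2 sits mainly at CpG islands, stretches of CpG-rich and mostly unmethylated DNA around gene starts, and is found at silent or poised developmental genes rather than at housekeeping genes. Ribosomal protein genes are classic housekeeping genes. Their starts are CpG-rich, usually lack a TATA box, and begin with a run of pyrimidines, the terminal oligopyrimidine (TOP) tract, through which growth signals set the translation of their mRNAs. No RNA was measured in these samples, so whether each gene was active in these ESCs could not be checked here.

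The DNA just upstream of the starts shows what was compared. The lines below give the 250 bases upstream (5′ to 3′, mm9) of Rpl7 and Rpl13a, ribosomal protein genes that had a Suz12 site within 2 kb, beside the start of Rdh10, the neighbour of Rpl7 that lies inside that gene's Suz12 site. Capitals mark each CpG.
Rpl7, chr1:16094744-16094993 (− strand): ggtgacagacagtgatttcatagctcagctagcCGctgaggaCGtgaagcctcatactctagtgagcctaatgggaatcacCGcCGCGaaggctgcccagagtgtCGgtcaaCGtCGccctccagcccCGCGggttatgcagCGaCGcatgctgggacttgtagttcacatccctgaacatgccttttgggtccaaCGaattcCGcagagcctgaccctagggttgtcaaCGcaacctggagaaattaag
Rdh10, chr1:16095605-16095854 (+ strand): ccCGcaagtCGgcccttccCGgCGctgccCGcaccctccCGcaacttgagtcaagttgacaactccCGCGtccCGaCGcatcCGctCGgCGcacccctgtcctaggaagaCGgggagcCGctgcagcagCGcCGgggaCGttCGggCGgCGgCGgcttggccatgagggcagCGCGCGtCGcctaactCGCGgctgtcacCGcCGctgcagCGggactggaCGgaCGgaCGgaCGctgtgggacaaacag
Rpl13a, start with the densest CpG, chr7:52384119-52384368 (− strand): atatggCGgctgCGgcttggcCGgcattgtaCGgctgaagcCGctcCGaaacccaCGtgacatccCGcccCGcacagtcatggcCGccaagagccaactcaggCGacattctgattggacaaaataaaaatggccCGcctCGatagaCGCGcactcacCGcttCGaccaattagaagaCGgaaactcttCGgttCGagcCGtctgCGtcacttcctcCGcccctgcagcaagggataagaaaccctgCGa
Rpl13a, annotated start farthest upstream, chr7:52391788-52392037 (− strand): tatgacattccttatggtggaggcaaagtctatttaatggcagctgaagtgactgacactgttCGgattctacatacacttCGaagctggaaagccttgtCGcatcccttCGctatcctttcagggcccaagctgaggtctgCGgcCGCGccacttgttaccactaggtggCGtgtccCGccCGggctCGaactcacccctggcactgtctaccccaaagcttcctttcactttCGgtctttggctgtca
The Rpl7 stretch held 15 CpG (6.00 per 100 bp) and the Rdh10 stretch 35 (14.0 per 100 bp). At Rpl13a the densest start had 24 CpG upstream (9.60 per 100 bp) and the start farthest upstream 12 (4.80 per 100 bp). Among these 4 stretches, those of Rdh10 and of the far upstream start of Rpl13a overlapped a Suz12 site. The stretches upstream of Rpl7 and of the densest Rpl13a start overlapped no site of any list.

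By CpG density, the ribosomal protein genes were well inside the range in which many genes carried Suz12. The number of CpG per 100 bp was counted over 1000 bp around each annotated start, and each gene was given its densest start. The median was 7.15 in the ribosomal protein genes (quartiles 6.07 and 8.03, range 1.40 to 9.80) and 4.70 in all protein-coding genes. The median ribosomal protein gene stood at the 71.9th percentile, and 70 of 76 lay between 5 and 10 CpG per 100 bp. The medians of Rpl and Rps genes were 7.00 and 7.30. Rpl24 was densest at 9.80, followed by Rps20 (9.50), Rps6 (9.30), Rpl10a (9.20) and, at 9.00 each, Rps2, Rpl34, Rpl19 and Rpl7a. The lowest were Rpl3l (1.40), Rpl39l (3.10), Rps4x (3.90), Rpl4 (4.00) and Rpl23a (4.60). The first 2 of these are tissue-restricted copies, Rpl3l of skeletal muscle and heart and Rpl39l of testis. None of these 13 genes had a site of any list within 2 kb of a start.

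Suz12 sites were rare at ribosomal protein genes. A site was counted when its edge lay within 2 kb of any annotated transcript start of a gene. By this count 3 of 76 genes (3.95%, 95% Wilson interval 1.35 to 11) had a Suz12 site, against 24.6% of all protein-coding genes. Among the 14407 other genes in the same CpG bins, each bin weighted by the ribosomal protein genes in it, the share was 37.1% (95% interval 36.1 to 38.1), which would correspond to 28.2 of 76 genes. Pcl3 sites were found at 0 of 76 ribosomal protein genes, which allows a share of up to 3.95% (3 genes of 76, the limit used for a count of 0, with a Wilson upper bound of 4.81%), against 12.5% of all genes and 19.4% (18.6 to 20.2) of genes of like CpG density, or 14.8 of 76. All intervals count genes only and hold no error between libraries, since the lists hold no values for single libraries.

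Sites that lost Suz12 with Pcl3-shRNA were as rare. The Suz12-depleted list named 1 ribosomal protein gene, Rpl7 (1.32%, 0.233 to 7.08), against 17.6% of all genes and 27.4% (26.5 to 28.4) of genes of like CpG density. Every one of its 5722 sites repeats the position and p-value of a Suz12 site, and both lists used the same scramble library, so this count follows in part from that of Suz12. The H3K27me3-depleted list also named 1 gene (1.32%, 0.233 to 7.08), against 1.91% of all genes and 2.83% (2.49 to 3.18) of genes of like CpG density. That share is near the background of a short list, and nothing can be read from it about ribosomal protein genes.

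**Figure D1:**
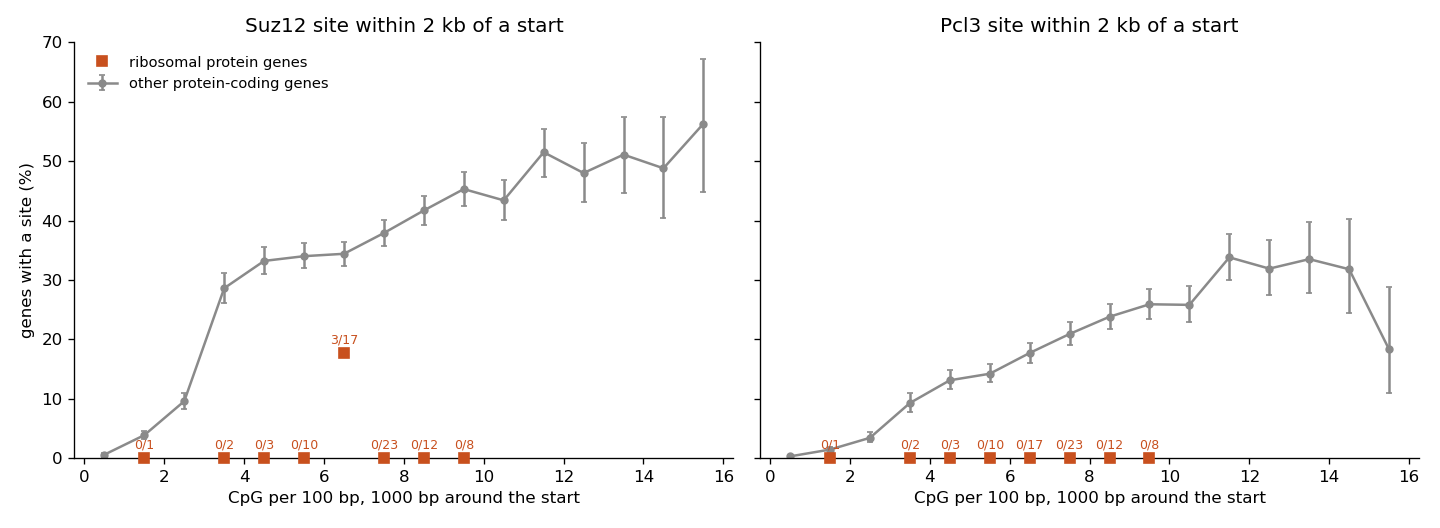
Percent of genes with a Suz12 site (left) or a Pcl3 site (right) within 2 kb of a start, by CpG per 100 bp over 1000 bp around the densest start, in steps of 1. Grey points are other protein-coding genes with 95% Wilson intervals (steps of at least 20 genes), and orange squares are ribosomal protein genes with the number that have a site over the number in the step. Among other genes the Suz12 share rose from 3.86% at 1 to 2 CpG per 100 bp to 45.3% at 9 to 10, while ribosomal protein genes had a Suz12 site in a single step (3 of 17 at 6 to 7) and no Pcl3 site in any.

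For Suz12 and Pcl3 the share was lower than in other genes in every step of CpG density with at least 8 ribosomal protein genes. These steps held 8 to 23 ribosomal protein genes each and no interval was computed for them, so differences within single steps were not assessed. Between 7 and 8 CpG per 100 bp, where ribosomal protein genes were most numerous, 37.9% of other genes had a Suz12 site and 20.9% a Pcl3 site, against 0 of 23 ribosomal protein genes for both lists. Between 8 and 9 the shares of other genes were 41.7% and 23.8%, against 0 of 12. Between 9 and 10 they were 45.3% and 25.9%, against 0 of 8. The 3 genes with a Suz12 site all lay between 6 and 7, where 34.4% of other genes had one.

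Each of the 3 Suz12 sites lay nearer to the start of another gene, at Rpl13a only by the distance to the center of the site. The clearest was that of Rpl7, a protein of the large subunit (chromosome 1, 16091376 to 16094743, minus strand). The site spanned 1400 bp at chr1:16095301-16096700 with a listed p-value of 9.45e-44, a smaller p than 62.6% of Suz12 sites had, and held 10.3 CpG per 100 bp. Its edge was 558 bp upstream of the Rpl7 start. The start of Rdh10 (16095855), which encodes a retinol dehydrogenase of retinoic acid synthesis, lay inside it, 146 bp from its center. This was the only one of the 3 sites that was also on the Suz12-depleted list, and the nearest Pcl3 site was 209 kb from an Rpl7 start.

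The site of Rpl13a was among the weakest on the list. It spanned 500 bp at chr7:52391551-52392050 with a listed p-value of 2.66e-08, and 4.22% of Suz12 sites had a larger p. Rpl13a encodes a large subunit protein and holds 4 annotated small nucleolar RNA (snoRNA) genes. The site covered the annotated start farthest upstream (52391787), but the start with the densest CpG (52384118) was 7433 bp away. The start of Flt3l (52391802), a cytokine of blood cell development, lay at its center to within 1.50 bp. The far upstream Rpl13a start was 13.5 bp from the center, so the site held both starts and cannot be assigned to either gene. The site held 4.60 CpG per 100 bp.

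Counted at the start with the densest CpG alone, 1 of 76 ribosomal protein genes (Rpl7) had a Suz12 site within 2 kb, against 36.4% of genes of like CpG density. No ribosomal protein gene had that start inside a site of any list. When each site was given only to the gene with the nearest start, the count was 0 of 76, against 34.9% of genes of like CpG density. For Rpl13a this rests on 13.5 against 1.50 bp from the center of a site that held both starts.

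**Figure D2:**
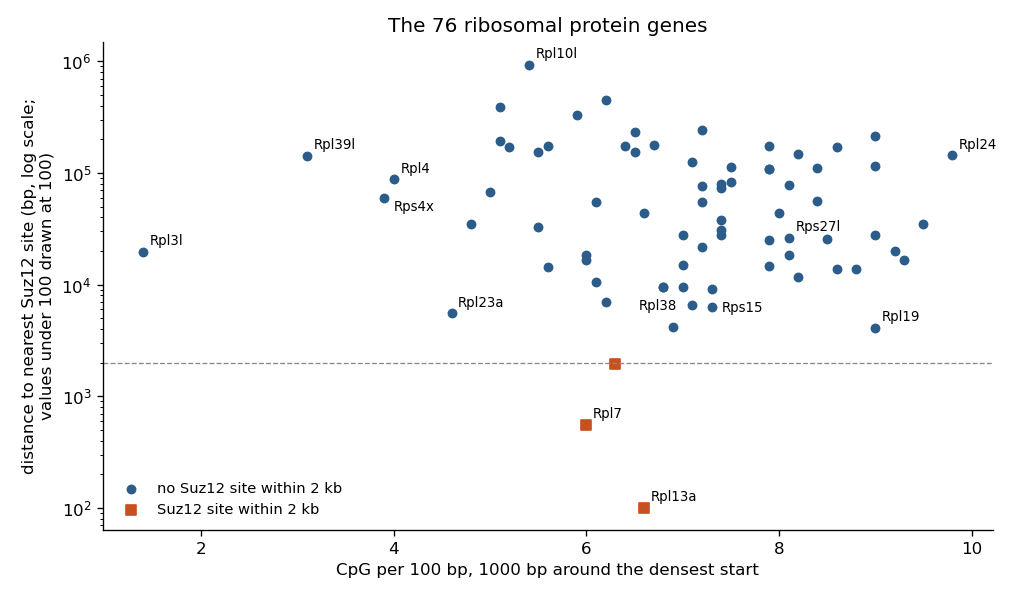
Each point is 1 of the 76 ribosomal protein genes, by CpG per 100 bp around its densest start (x axis) and the distance from any of its starts to the edge of the nearest Suz12 site in bp (y axis, log scale, values under 100 drawn at 100). The dashed line is at 2 kb, and the 3 genes with a site on or under it (orange, Rpl7 and Rpl13a among them) all lie between 6.00 and 6.60 CpG per 100 bp.

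The nearest sites beyond 2 kb that are named here also sat at other genes. Rpl19 was 4074 bp from a site that held the start of Cacnb1, a calcium channel subunit gene. Rpl23a was 5515 bp from a site at Rab34, a small GTPase gene. Rps15 was 6261 bp from a site at Apc2, and Rpl38 6561 bp from one at Ttyh2. Within 20 kb of 26 ribosomal protein genes there were 33 Suz12 sites. Of these, 25 held the start of another protein-coding gene, and for 1 a ribosomal protein gene (Rpl29, 10585 bp away) had the nearest start. Pcl3 sites within 20 kb numbered 9, beside 9 ribosomal protein genes, and 7 of them held the start of another gene. How many of all Suz12 or Pcl3 sites hold a gene start was not counted. These numbers therefore show nothing particular to sites near ribosomal protein genes.

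Ribosomal protein genes were not far from Suz12 sites in general. The median distance to the nearest one was 40.8 kb (quartiles 15.0 and 130), against 25.2 kb in genes of like CpG density and 59.8 kb in all protein-coding genes. Among genes with no Suz12 site within 2 kb, the medians were 44.0 kb in 73 ribosomal protein genes and 70.4 kb in 10180 genes of like CpG density. Within 20 kb, 34.2% of ribosomal protein genes had a Suz12 site against 47.1% of genes of like CpG density, and within 200 kb 90.8% against 87.5%. The median distance to a Pcl3 site was 104 kb, against 103 kb in genes of like CpG density. Within 10 kb the Suz12 shares were 17.1% and 41.1%.

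**Figure D3:**
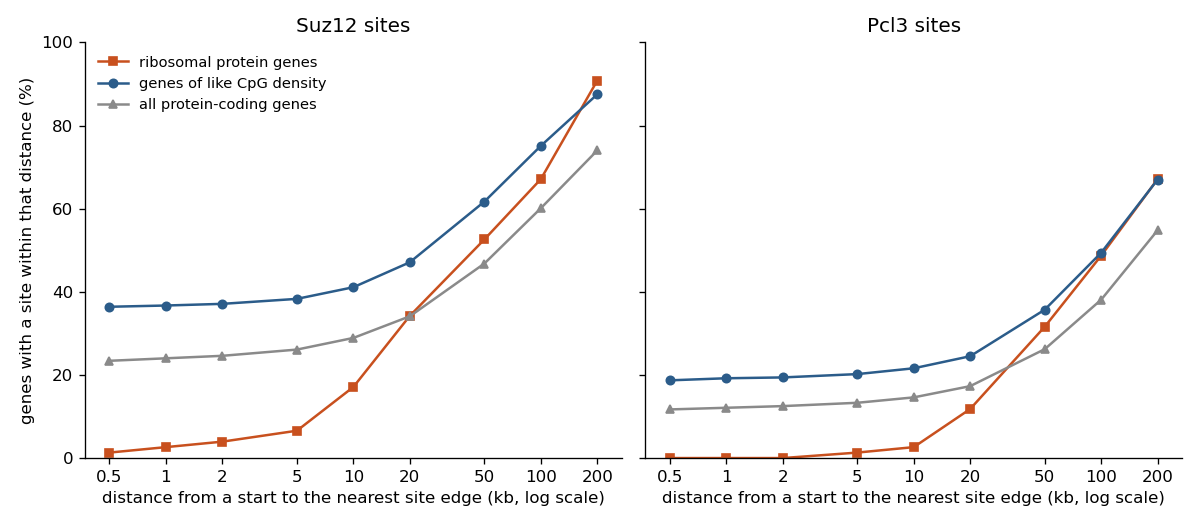
Percent of genes with a Suz12 site (left) or a Pcl3 site (right) within a distance of any of their starts (x axis, kb, log scale), for ribosomal protein genes (orange squares), genes of like CpG density (blue circles) and all protein-coding genes (grey triangles). The orange line starts near 0, at 1.32% within 0.5 kb for Suz12 against 36.4%, and meets the blue line by 200 kb.

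Neighbouring genes gave a further local comparison, made after the counts above were known. For each ribosomal protein gene the nearest other protein-coding gene was taken, measured from the densest start. This gave 75 genes at a median distance of 7394 bp with a median of 5.40 CpG per 100 bp. Of these neighbours 19 (25.3%, 16.9 to 36.2) had a Suz12 site within 2 kb, against 30.7% of genes of like CpG density. A Pcl3 site was found at 7 (9.33%, 4.59 to 18.0) against 15.5%. At 12 ribosomal protein genes, among them Rps27, another gene started within 1000 bp of the densest start. Of these 12, 0 had a Suz12 site within 2 kb of any start. By this measure Rpl7 (1112 bp) and Rpl13a (3859 bp) fell outside, although Flt3l started beside the far upstream start of Rpl13a. Of other genes in the same CpG bins with so close a neighbour, 20.4% had a Suz12 site, here without weighting by bin. With 12 genes and no interval computed, no difference can be read from this count.

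The tissue-restricted and stress-responsive copies and their widely expressed counterparts all lacked a site. Rpl3l lay 19.6 kb from the nearest Suz12 site, and its counterpart Rpl3 (5.00 CpG per 100 bp) 68.0 kb. Rpl10l, an intronless copy known from testis, had 5.40 CpG per 100 bp and was the farthest of all at 936 kb, with Rpl10 (5.10 CpG per 100 bp) at 390 kb. Rpl39l was 143 kb away, and Rpl39 (4.80 CpG per 100 bp) 35.1 kb. Rps27l, which responds to p53, had 8.10 CpG per 100 bp and lay 26.2 kb away, and Rps27 (5.60 CpG per 100 bp) 176 kb. These 8 genes had no Suz12, Pcl3 or depleted site within 2 kb. A Suz12 site was at 3 of 76 ribosomal protein genes and 24.6% of all genes, so the lack of one shows no likeness. At 1 to 2 CpG per 100 bp, where Rpl3l lay, 3.86% of other genes had one.

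Other housekeeping families also had few sites, and none of the differences between families was tested. Mitochondrial ribosomal protein genes, 76 as well, had a median of 5.75 CpG per 100 bp. Suz12 sites were at 6 of them (7.89%, 3.67 to 16.2), against 35.5% of genes of like CpG density. By smallest p these were led by Mrpl34 (p-value 8.53e-21), Mrps6, Mrps25, Mrps24 and Mrps26, and Mrpl23 had the only Pcl3 site. The interval of this family overlaps that of the cytosolic ribosomal protein genes. Among 41 proteasome genes (Psmb9 is annotated as 2 of them) 4 had a Suz12 site (9.76%, 3.86 to 22.5), against 33.4%. They were the 2 Psmb9 genes and Psmb8, which encode subunits of the immunoproteasome, and Psmb11, a subunit of the thymus, and all 4 were on the Suz12-depleted list. Psmb8 had the only Pcl3 site in the family.

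Other genes of the translation machinery were counted in the same way. Of 57 translation and ribosome assembly genes, 5 had a Suz12 site (8.77%, 3.81 to 18.9), against 39.5% of genes of like CpG density. These were Eef1d (p-value 2.33e-59), Eef1a2, the elongation factor form of neurons and muscle (p-value 1.11e-50), Eif5a2 (p-value 1.14e-41), Eif5 (p-value 1.21e-15) and Polr1d (p-value 5.32e-08). A Pcl3 site was at 6 of the 57 (10.5%, 4.91 to 21.1), against 21.4%, and Eif5, Eif5a2, Eef1d, Eef1a2 and Eif4a2 had the smallest p. A further list of 10 genes held ribosomal proteins and copies that the symbol rule leaves out, and Rps19bp1, named for a protein that binds Rps19. Of these, Rpl36al had a Suz12 site (p-value 6.55e-08), a share of 10.0% (1.79 to 40.4) against 39.0%. A Pcl3 site was at 0 of 10 (Wilson upper bound 27.8%) against 21.5%. With 10 genes, both intervals take in the share of genes of like CpG density.

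The Hox genes, which PRC2 is known to bind, were all marked. All 40 Hox cluster genes (Hoxa3 is annotated more than once among them) had a Suz12 site, a Pcl3 site and a Suz12-depleted site. Their median was 5.80 CpG per 100 bp, below that of the ribosomal protein genes, and 14 (the Hoxa3 entries included) had an H3K27me3-depleted site. Genes could share a site, as with a Pcl3 site of 81300 bp over Hoxb3 to Hoxb9. The p-values at Hoxb7, Hoxb8, Hoxb5, Hoxc9 and Hoxa5 are listed at 0 for Suz12. Of 8 ESC marker genes, Esrrb (p-value 6.61e-229) and Klf4 (p-value 2.16e-85) had a Suz12 site, Esrrb also a Pcl3 site, and Pou5f1, Nanog, Sox2, Zfp42, Tdgf1 and Dppa5a had none. These shares, 25% (7.15 to 59.1) for Suz12 and 12.5% (2.24 to 47.1) for Pcl3, were near the 26.4% and 13.0% of genes of like CpG density. Without RNA these markers cannot check the cell type.

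**Figure D4:**
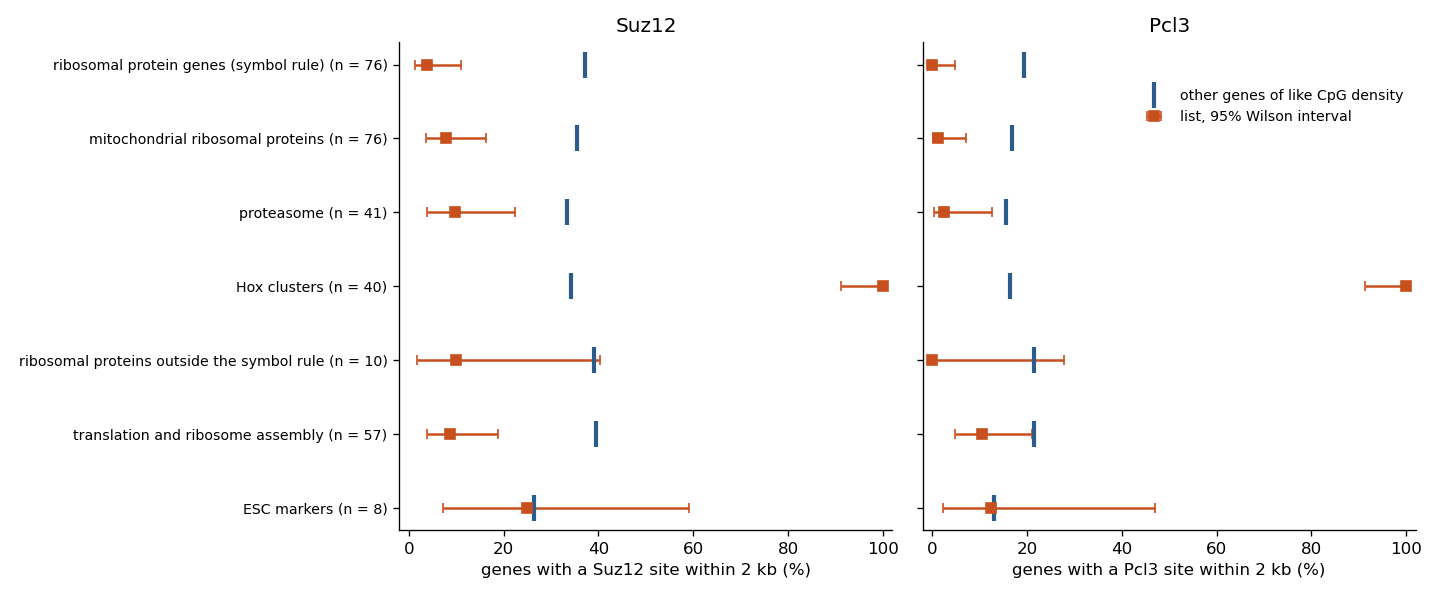
Percent of genes with a Suz12 site (left) or a Pcl3 site (right) within 2 kb of a start in each gene list (orange squares with 95% Wilson intervals), and the share of other genes of like CpG density (blue bars). The ribosomal protein genes are lowest for Suz12 at 3.95%, the Hox genes are at 100% in both panels, and the squares of the other housekeeping lists lie between 7.89% and 10.0% for Suz12.

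The shape of the CpG-rich stretch differed little at the start and more downstream. In the first 100 bp after the start, the mean was 9.20 CpG per 100 bp in ribosomal protein genes, 9.88 in genes of like CpG density with a Suz12 site and 9.77 in those without. Between 700 and 800 bp downstream the means were 2.30, 3.75 and 2.44, so that the ribosomal protein genes were close to the genes without a site there. Over 2000 bp around the start the median density was 4.82 in ribosomal protein genes, 5.00 in the 4227 genes of like CpG density with a Suz12 site and 4.65 in the 10180 without. Binned by the density over 2000 bp, the Suz12 share of like genes was 36.1%. GC content around the start had a median of 58.8% in ribosomal protein genes and 61.5% in genes of like CpG density.

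**Figure D5:**
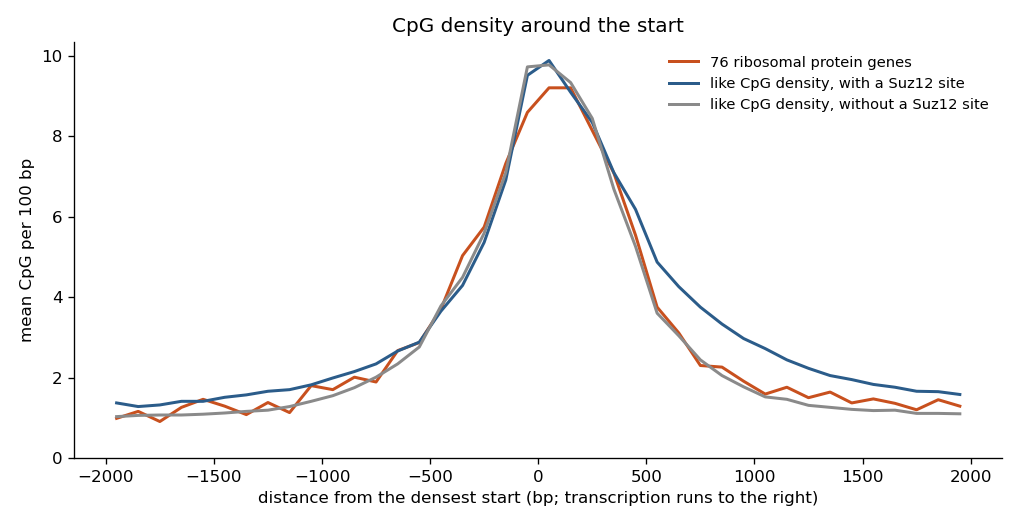
Mean CpG per 100 bp in steps of 100 bp around the densest start (x axis in bp, transcription to the right), for the 76 ribosomal protein genes (orange) and for genes of like CpG density with a Suz12 site (blue) or without (grey). The 3 lines peak near the start, at 9.20, 9.88 and 9.77 in the first 100 bp, and the blue line is above the others from about 400 bp downstream.

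The ribosomal protein genes shared features that the rule did not use. TOP tracts were counted at their annotated starts. The lines below show 30 bases around 1 annotated start of each gene (15 upstream, then 15 from the first transcribed base, mm9), chosen from the long tracts and from genes with a Suz12 site, with the tract in capitals.
Rpl32, chr6:115758751-115758780 (− strand): gcgccgccgccgcctCTTCCTTCTTCCTCg
Rps2, chr17:24857040-24857069 (+ strand): ccgcggcgcctccctCTTCTTCTTCTTCgg
Rpl10, chrX:71516181-71516210 (+ strand): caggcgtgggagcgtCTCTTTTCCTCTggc
Rpl13a, chr7:52384093-52384122 (− strand): gcgacaagacctcctCCTTTCCCaggcggc
Rpl7, chr1:16094469-16094498 (− strand): gcatgcgccacctttCTCTCTTCTTTTCCg
The Rpl7 start shown is that of a retained-intron transcript, and the other 4 are starts of protein-coding transcripts. A tract of a C and at least 4 more pyrimidines began exactly at an annotated start in 25 of 76 genes (32.9%, 23.4 to 44.1), against 7.59% of genes of like CpG density and 6.17% of all genes. At the densest start alone it was found in 6 (7.89%), against 1.84%. With the tract allowed to begin up to 10 bases from the start, the shares were closer, at 77.6% against 59.3% for any annotated start and 48.7% against 28.5% for the densest start. Ribosomal protein genes had a median of 4 annotated starts, genes of like CpG density 3 and all genes 2. The first comparison therefore gives ribosomal protein genes more starts to match.

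Short motifs were searched on both strands from 250 bases upstream to 50 downstream of the densest start, and none of these motifs contains another. CCGGAAG, which ETS family factors can bind, was in 33 of 76 genes (43.4%, 32.9 to 54.6), against 19.0% of genes of like CpG density and 11.6% of all. GCGCGC, the core of a motif that the study examined, was in 15 (19.7%, 12.3 to 30.0), against 31.0% and 20.0%. The GC box GGGCGG was in 45 (59.2%), against 72.7% and 47.9%. AAGATGGC, which YY1 can bind, was in 5 (6.58%), against 5.19% and 3.82%, and TATAAA in 8 (10.5%), against 4.96% and 12.3%. These are matches of letters and not bound sites.

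The genes were also short, and many hosted snoRNA genes. Their median length was 3238 bp, against 15427 bp in all protein-coding genes, with a median of 5 exons against 7. An annotated snoRNA gene lay inside 28 of them (36.8%), against 1.20% of all protein-coding genes, and together they held 54 of 1552 annotated snoRNA genes. Measured from the densest start, the nearest start of another protein-coding gene was at a median of 6832 bp, against 16575 bp in genes of like CpG density.

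Ribosomal protein genes have many processed copies in the mouse genome, and reads that matched more than 1 place were not kept. The median share of 30-base sequences within 1 kb of the densest start that occur once in mm9 was 91.8% in ribosomal protein genes (range 67.3 to 100) and 99.3% in genes of like CpG density. It was lowest in Rpl37a (67.3%), Rps2 (67.5%) and Rpl10l (70.1%). For the upstream 1 kb alone, which processed copies lack, the medians were 97.8% and 100%. Among genes with at least 90% of the upstream sequences unique, 3 of 53 ribosomal protein genes had a Suz12 site and 0 a Pcl3 site, against 40.0% and 21.3% of genes of like CpG density. This filter covers the upstream 1 kb only, while sites were counted on both sides of a start, and the part of read uniqueness in the counts was not tested.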

How the data were processed

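ChIP-seq site lists from mouse ESCs (6 ChIP and 4 input libraries) were analysed. According to its methods, the study mapped single-end reads of 30 nucleotides to mm9 (bowtie) and used those with a unique place. Background reads were scaled to be equal within each pair of libraries, the difference in running windows was tested against a Skellam null, and overlapping windows past the threshold were merged. The deposited p-values, 1 per site, were recomputed by the authors for the merged windows and are the only measured values. How the 2 Pcl3-TAP libraries were combined is not given in the sources used here. The smallest ones stand as 0 in the lists (435 Suz12 and 208 Pcl3 sites). Because sites are called at a threshold, a gene without a site may carry weaker binding.

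Starts came from GENCODE vM1, and sequence from the matching mm9 genome. Genes of like CpG density are other protein-coding genes in the same bins of 1 CpG per 100 bp, weighted by the ribosomal protein genes per bin. Intervals are at 95%. Uniqueness was counted by exact matches of 30-base sequences on both strands, whereas the authors' alignment allowed mismatches. Genes named are those with a site within 2 kb, the 5 densest (with ties) and 5 least dense, the 5 next nearest to a Suz12 site, the tissue-restricted copies with their counterparts, and up to 5 genes with a site per list by smallest p (ties by width). The other genes were named after their values were seen, and 2 genes that the rule names are not reported here. The members and lists were chosen with earlier results of these data known. Alternatives were other distances, starts, thresholds, chromosomes and CpG windows. The scripts were tested on simulated data. Coordinates are 1-based. Python 3.11.15, numpy 2.4.6, pandas 2.3.3, pysam 0.24.0, samtools 1.23.1 and matplotlib 3.10.9 were used.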

Additional observations from a re-analysis of the deposited data

How the results depend on the processing

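The share of ribosomal protein genes with a site was below that of genes of like CpG density in all 13 settings of each list that could be applied to both, the reported one included. It ranged from 0 to 6.58% against 31.0 to 40.0% for Suz12, from 0 to 1.32% against 13.9 to 21.3% for Pcl3, from 0 to 2.63% against 25.7 to 29.9% for Suz12-depleted and from 0 to 1.89% against 0.507 to 3.44% for H3K27me3-depleted sites. For H3K27me3-depleted sites the count was 0 or 1 in every setting, so a share below that of like genes says nothing there. At distances outside these settings the order for that list was reversed, at 6.58% against 4.18% within 10 kb and 7.89% against 5.76% within 20 kb. Of 112 values under alternatives, 44 moved by over 1.5 times (counts) or left the 95% interval (shares).

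The 3 genes with a Suz12 site became 1 at 500 bp, 5 at 5 kb, 1 with sites of p at most 1e-12, 1 at the densest start and 0 with each site given to the gene of the nearest start. The 0 genes with a Pcl3 site became 1 at 5 kb. The 1 gene with a Suz12-depleted site became 0 at 500 bp, 2 at 5 kb and 0 with each site given to the gene of the nearest start. The 1 gene with an H3K27me3-depleted site became 0 at 500 bp, at 1 kb, by the center of the site, with p at most 1e-12, with protein-coding transcripts only, at the 5′-most start, at the densest start and with the nearest start. The cause was not tested.

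For genes of like CpG density the shares for Suz12, Pcl3 and Suz12-depleted sites, in this order, were 35.0, 18.2 and 25.7% at the 5′-most start, 34.9, 18.5 and 26.1% with the nearest start, 35.6, 18.0 and 25.6% with CpG over 500 bp, 34.6, 17.7 and 25.2% with CpG at the 5′-most start, and 40.0, 21.3 and 29.9% in genes with unique upstream sequence. At 5 kb they were 38.3% for Suz12 and 28.4% for Suz12-depleted sites, with p at most 1e-12 31.0% for Suz12 and 13.9% for Pcl3, and with CpG over 2000 bp 18.0% for Pcl3 and 26.3% for Suz12-depleted sites. For H3K27me3-depleted sites they were 2.15% at 500 bp, 3.44% at 5 kb, 0.507% with p at most 1e-12, 2.36% at the 5′-most start, 2.12% without chromosome 11 and 2.47% at the densest start. The densest start and the unique upstream sequence were added after the data were seen.

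No paired analysis was possible because each condition has 1 library and the 2 Pcl3-TAP libraries share 1 list, and leaving out a replicate was not possible for the same reason. Read depth was not analysed here, and binding weaker than the authors' threshold is not in the lists.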
